A study of Mus musculus with 10 samples.

Results

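RNAseq of sorted endoderm was set against RNAseq of sorted Foxa2+ cardiac mesoderm (Foxa2+ CM), 2 populations that were both gated on a reporter of Foxa2, to read the expression that differs between the germ layers among cells taken as Foxa2 positive. The 2 samples titled Endoderm and the 3 titled Cardiac mesoderm, Foxa2+ were used, 5 of 10 samples in the series. Both come from 1 mouse embryonic stem cell (mESC) line, Foxa2-hCD4, in which a truncated human CD4 is made from the Foxa2 locus and can be stained on living cells. Embryoid bodies, the floating aggregates in which mESCs differentiate, were given VEGF, Activin A and BMP4 in the cardiac cultures. The endoderm cultures received Activin A alone, at a higher concentration. On the fifth day Foxa2+ CM was sorted as Pdgfra+ Kdr+ hCD4+ cells, and endoderm as cells negative for Pdgfra and Kdr with the brightest hCD4. Germ layer, growth factors and gate therefore change together and cannot be told apart. The labels do not say that samples of 1 group were separate cultures. A p-value thus measures the spread between samples within the 4 groups of the series, which may be technical. As these are bulk samples, fewer cells of a type and less RNA per cell cannot be told apart either.

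Definitive endoderm and cardiac mesoderm both leave the primitive streak of the gastrulating embryo, under Nodal signals from its anterior end and with Wnt and BMP signals that favour mesoderm. Endoderm then takes an epithelial form and uses Foxa and Sox17 factors, whereas cardiac precursors become migratory mesenchyme and switch on Gata, Hand, Tbx and Nkx factors. Foxa2 itself is a forkhead factor of the streak, the node, the notochord and the endoderm.

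Reads on genes totalled between 10926284 and 17470126 per sample, and a gene with 3 counts, the smallest number treated here as detected, stood at 0.17 to 0.28 counts per 1000000 (CPM, scaled with edgeR's TMM factors). Of 38924 genes in the files, 16180 were tested with edgeR's quasi-likelihood test, in 1 fit of all 10 samples with a mean for each of 4 groups. A gene is called where its p-value after Benjamini-Hochberg adjustment over all tested genes (given below as adjusted p) is under 0.05 and it differs by at least 2-fold. This held for 18.7% of tested genes, 10.2% higher and 8.49% lower in Endoderm, and the median log2 fold change over all tested genes was 0.0072. Fold changes are Endoderm over Foxa2+ CM throughout, with a standard error (SE). The sort markers Foxa2, Kdr and Pdgfra check the labels and are no finding. Foxa2 stood at 185 and 182 CPM in Endoderm and at 20.01, 16.01 and 3.49 CPM in Foxa2+ CM replicates 1, 2 and 3. The 2 populations are thus both sorted on the reporter but not matched for Foxa2 mRNA, and replicate 3 of Foxa2+ CM is the lowest. Kdr and Pdgfra were lower in Endoderm, with log2 fold changes of -5.54 and -1.86.

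**Figure D1:**
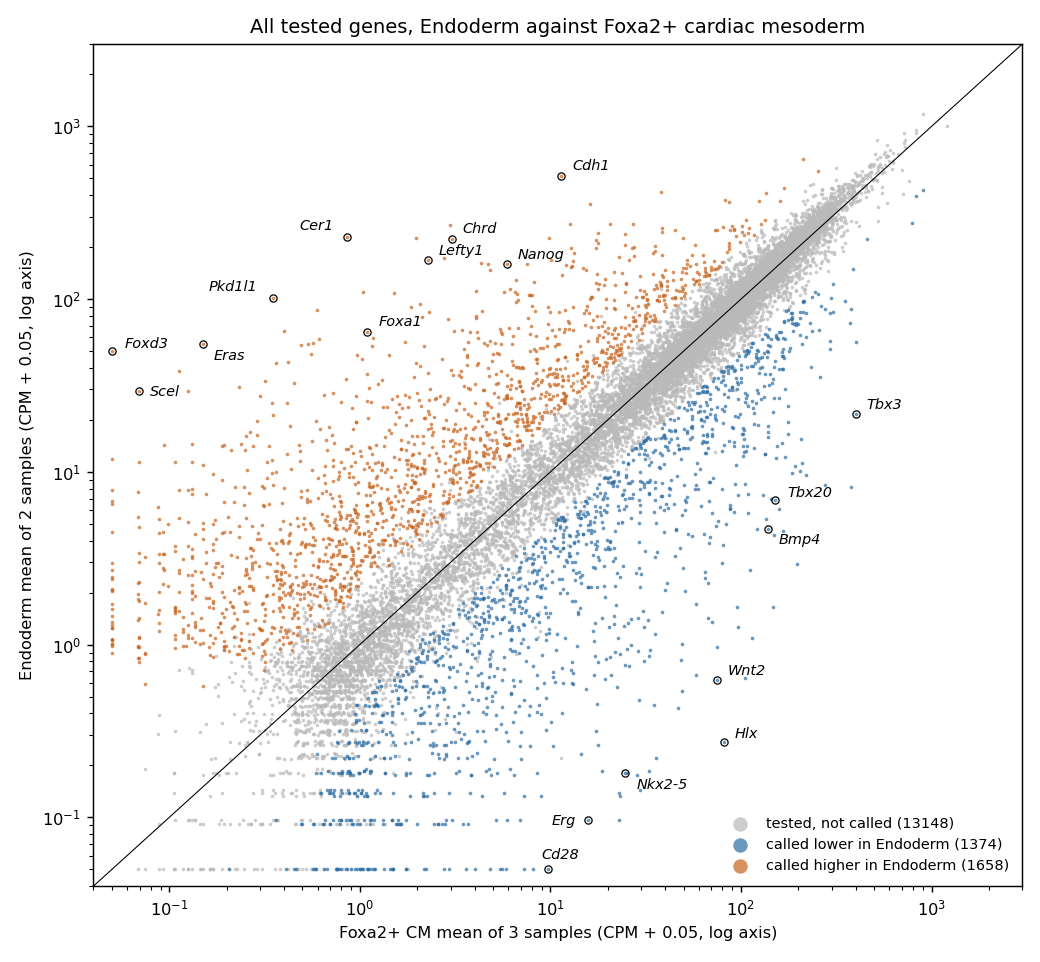
Mean expression of the 16180 tested genes in Foxa2+ CM (x axis, 3 samples) and Endoderm (y axis, 2 samples), both as CPM plus 0.05 on log axes; each point is a gene and the line marks equal values. Called genes lie on both sides (1658 higher, 1374 lower in Endoderm), with Foxd3, Cer1, Pkd1l1 and Cdh1 far above the line and Hlx, Wnt2 and Nkx2-5 far below it.

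Among the largest differences were the rises of Foxd3, Scel, Eras and Cer1 and the falls of Cd28, Hlx, Hand2 and Erg in Endoderm. The 15 most raised and the 15 most lowered genes were taken among called genes that averaged 50 counts or more and whose samples did not overlap between the groups. Such a lack of overlap is common here, found in 63.6% of all tested genes. At the Endoderm end stood regulators and membrane proteins of several origins. Foxd3, a forkhead repressor of the epiblast and neural crest, was read at 46.3 and 53.6 CPM in Endoderm and at 0 counts in all 3 Foxa2+ CM samples, which makes it at least 267-fold higher. The noncoding RNA Gm12688 lies 1315 bases from Foxd3 on chromosome 4, on the opposite strand, and had the same pattern, with 13.8 and 9.78 CPM against 0 counts, at least 62.9-fold higher. Scel, which encodes the cornified-envelope protein sciellin, had 679 counts in the Endoderm samples together and 1 in Foxa2+ CM. The depth-corrected ratio was 1457, with a 95% interval for counting error of 260.7 to 57638. Eras, a Ras-like GTPase of embryonic stem cells, stood at 59.8 and 50.3 CPM against 0.073, 0.116 and 0.113 CPM (log2 fold change 8.95 ± 0.32 SE, edgeR adjusted p = 5.63e-07).

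Pkd1l1, a polycystin of the node that takes part in left-right patterning, stood at 102 and 101 CPM in Endoderm and at 0.219 to 0.347 CPM in Foxa2+ CM (log2 difference 8.33 ± 0.57 SE, edgeR adjusted p = 1.09e-05). Cer1, the secreted Nodal, BMP and Wnt antagonist Cerberus, stood at 227 and 231 CPM against 0.365, 0.752 and 1.296 CPM (8.09 ± 0.28, edgeR adjusted p = 4.8e-07). Trp73, a relative of p53, and the axonal adhesion molecule Nfasc were higher by 7.33 ± 0.47 and 7.24 ± 0.49 on the log2 scale. The remaining 7 were Fam19a4, Ccdc33, Lypd6b, the glutathione peroxidase Gpx2, Samd3, the opioid peptide precursor Pdyn and 2900011O08Rik. Pdyn differed between the Endoderm samples, at 2.79 and 19.8 CPM.

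At the other end, 6 of the 15 most lowered genes had 0 counts in both Endoderm samples. They were the T cell costimulatory receptor gene Cd28 (8.25, 10.9 and 9.92 CPM in Foxa2+ CM, at least 36.5-fold lower in Endoderm), A530016L24Rik, Ppp1r17, the complement component Hc, the noncoding RNA Rubie and the tachykinin precursor Tac2 (at least 20.3-fold lower). Rubie lies on chromosome 14, 177593 bases from Bmp4 and on the same strand, and 66.1% of its exonic bases overlap another gene, so its reads and those of that gene cannot be told apart where strand is not marked. Hlx, a homeobox factor of mesenchyme, stood at 84.1, 81.9 and 78.6 CPM in Foxa2+ CM and at 0.279 and 0.167 CPM in Endoderm (log2 fold change -8.48 ± 1.10 SE, edgeR adjusted p = 0.000398). The serotonin transporter gene Slc6a4 stood at 37.8, 37.4 and 31.5 CPM against 0.0931 and 0.251 CPM (-7.59 ± 0.72, edgeR adjusted p = 6.82e-05).

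Pparg, the nuclear receptor of fat cell differentiation, had 1374 counts over the Foxa2+ CM samples and 3 over the Endoderm samples, a ratio of 213 with a counting interval of 72.9 to 1036. Fxyd2, a subunit of the sodium pump, and the phosphodiesterase gene Pde7b had ratios of 249 and 264. Gbx1, Samsn1, Hand2 and the ETS factor Erg complete the list, and Hand2 and Erg return below with the cardiac and endothelial genes.

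The start regions of 4 genes with large differences are shown, 2 higher and 2 lower in Endoderm, for reading beside their values. Each is the 250 bases before the RefSeq start on GRCm38.p6, written 5′ to 3′ on the gene's strand, and RefSeq starts need not be those used in these cells (those of Foxa1 and Nkx2-5 lie inside the bounds GENCODE gives these genes). Capitals mark a match, on either strand, to 1 of 5 short motifs: the FOX core TGTTTAC, the GATA core AGATAA, the OTX and Goosecoid core TAATCC, the FOXH1 core TGTGGATT and the T-box core AGGTGTGA.
Cer1, chr4:82885152-82885401, minus strand: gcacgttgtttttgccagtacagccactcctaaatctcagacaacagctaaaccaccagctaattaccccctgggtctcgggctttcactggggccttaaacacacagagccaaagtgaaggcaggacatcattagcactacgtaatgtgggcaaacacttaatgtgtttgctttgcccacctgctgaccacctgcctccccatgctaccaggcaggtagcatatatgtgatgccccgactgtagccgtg
Foxa1, chr12:57546112-57546361, minus strand: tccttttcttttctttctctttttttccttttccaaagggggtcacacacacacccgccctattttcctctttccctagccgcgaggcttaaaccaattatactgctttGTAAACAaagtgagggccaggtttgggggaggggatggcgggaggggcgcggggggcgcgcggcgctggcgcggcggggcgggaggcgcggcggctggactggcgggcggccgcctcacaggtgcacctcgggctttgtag
Nkx2-5, chr17:26841566-26841815, minus strand: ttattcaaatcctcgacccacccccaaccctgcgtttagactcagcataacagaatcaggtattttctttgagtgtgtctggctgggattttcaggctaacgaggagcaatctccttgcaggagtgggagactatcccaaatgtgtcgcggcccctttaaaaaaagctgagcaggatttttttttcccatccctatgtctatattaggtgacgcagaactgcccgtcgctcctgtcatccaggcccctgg
Hand2, chr8:57320733-57320982, plus strand: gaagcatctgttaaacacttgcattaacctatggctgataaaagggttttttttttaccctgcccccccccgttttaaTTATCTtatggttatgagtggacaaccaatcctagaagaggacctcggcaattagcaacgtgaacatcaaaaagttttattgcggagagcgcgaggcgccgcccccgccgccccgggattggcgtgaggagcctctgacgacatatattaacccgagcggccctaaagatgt
The window of Foxa1 held 1 FOX core and that of Hand2 1 GATA core, both as the reverse complement, and those of Cer1 and Nkx2-5 held none of the 5 motifs, which says only that these letters are not there. Over the genes with 1 RefSeq window, the FOX core stood in 2.46% of 936 genes called higher, 1.85% of 756 called lower and 2.09% of 9240 tested. The GATA core stood in 6.41%, 6.61% and 5.73%, the OTX and Goosecoid core in 5.45%, 4.89% and 5.21%, the FOXH1 core in 0.427%, 0.265% and 0.455% and the T-box core in 1.28%, 0.661% and 0.736%. These shares are a description, and those of the FOXH1 and T-box cores among called genes rest on 2 to 12 genes. Over all 22862 genes with 1 window, the shares were 3.1%, 10.4%, 6.58%, 0.792% and 1.15% in the same order of motifs.

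Endoderm factors separated into a set that differed widely and a set that both populations carried. Of 14 transcription factors of definitive endoderm, all tested, 10 were called higher (10.2% of all tested genes were), 0 lower and 4 not called, with a median log2 fold change of 1.79. Members of this and the other lists are compared by counts alone. Foxa1, a paralogue of Foxa2 whose start region with its FOX core is shown above, stood at 50.1 and 79.0 CPM in Endoderm and at 1.02, 1.27 and 0.845 CPM in Foxa2+ CM, a 61.2-fold difference (log2 fold change 5.94 ± 0.25 SE, edgeR adjusted p = 8.77e-07). The third paralogue, Foxa3, was low in both, at 3.63 and 5.18 CPM against 0.733 to 1.39 CPM (2.02 ± 0.36, edgeR adjusted p = 0.00221). Sox17, a factor required for definitive endoderm, stood at 105 and 177 CPM against 27.7, 23.3 and 19.8 CPM (2.58 ± 0.33, edgeR adjusted p = 0.00037). It was therefore well above the detection limit in Foxa2+ CM too.

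Lhx1 and Otx2, factors of the anterior streak and the head organizer tissue, were higher by 3.47 ± 0.53 and 2.68 ± 0.40 on the log2 scale, and Lhx1 reached 402 and 437 CPM. Hhex, of the anterior endoderm and of blood and endothelial precursors, rose less, by 1.37 ± 0.26. Prdm1, which encodes Blimp1, was called (1.56 ± 0.44), but without Endoderm replicate 2 its log2 fold change was 0.89 with an adjusted p of 0.22, and without Foxa2+ CM replicate 3 the adjusted p was 0.0633. Mnx1, at 0.558 and 1.25 CPM in Endoderm, kept its call in 1 of the 5 fits that leave out 1 sample.

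The 4 factors not called act early, in the streak and the first endoderm, and both populations held them at over 30 CPM. Eomes, the T-box factor at the head of endoderm and cardiac mesoderm programmes, stood at 403 and 347 CPM in Endoderm and at 401, 334 and 312 CPM in Foxa2+ CM (log2 difference 0.10 ± 0.31 SE, edgeR adjusted p = 0.824). Mixl1 stood at 237 and 221 CPM against 237, 198 and 188 CPM, and Gata6 at 117 and 181 CPM against 155, 140 and 127 CPM. For both, the groups overlapped, with log2 fold changes of 0.14 ± 0.27 and 0.09 ± 0.16. Gsc, the organizer homeobox gene, was at 82.4 and 102 CPM against 65.1, 51.4 and 35.6 CPM, short of the call (0.86 ± 0.37, edgeR adjusted p = 0.0978). Its groups did not overlap, like those of 63.6% of tested genes. The standard errors do not exclude differences of a size below 2-fold for these genes, and for Gsc they do not exclude a larger one.

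Surface and secreted markers of definitive endoderm numbered 12, of which 5 were called higher, 5 not called and 2 not tested (Pyy and Nepn, at most 0.465 CPM). Beside Cer1, the tight junction gene Cldn6 stood at 153 and 169 CPM against 3.72 to 5.03 CPM (5.23 ± 0.36, edgeR adjusted p = 1.11e-05), and Trh, the precursor of thyrotropin-releasing hormone, at 201 and 205 CPM against 33.0 to 38.4 CPM (2.52 ± 0.22). Cxcr4, the chemokine receptor often used to sort definitive endoderm, did not separate the groups. It stood at 55.9 and 110 CPM in Endoderm and at 79.2, 81.9 and 90.5 CPM in Foxa2+ CM (-0.02 ± 0.23, edgeR adjusted p = 0.961). The Wnt antagonist gene Dkk1 likewise overlapped, at 44.3 and 103 CPM against 76.4 to 81.9 CPM.

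Visceral and other extraembryonic endoderm had 15 markers, of which only Hnf4a was called higher, 3 were lower, 10 not called and Apoa2 not tested. Of the genes for secreted and absorptive proteins of visceral endoderm, Afp, Ttr, Amn and Apoa1 were at most 1.75 CPM in any of the 5 samples. Apob, which encodes the structural protein of lipoproteins, stood at 5.31 and 19.7 CPM in Endoderm and at 3.58, 21.4 and 12.2 CPM in Foxa2+ CM, and Cubn, an absorptive receptor gene, at 2.14 and 7.69 CPM against 5.48, 11.97 and 9.75 CPM, both overlapping and not called. Hnf4a, a nuclear receptor of visceral endoderm and later liver and gut, stood at 6.05 and 27.5 CPM against 1.18 to 1.79 CPM (3.57 ± 0.92, edgeR adjusted p = 0.0145). Without Endoderm replicate 2 its log2 fold change was 2.07 and the adjusted p 0.185, and it also lost its call without Foxa2+ CM replicate 1 (adjusted p = 0.0564) or replicate 3 (0.0512). The laminin chain gene Lama1 and the SoxF gene Sox7 were lower in Endoderm, Lama1 at 8.94 and 15.7 CPM against 82.2, 108 and 119 CPM. Sox7 differed among the Foxa2+ CM samples (7.96, 15.1 and 42.5 CPM) and lost its call without either Endoderm sample (adjusted p = 0.122 and 0.0779). The 15 genes summed to 76.4 to 159.5 CPM in Endoderm and to 173 to 274 CPM in Foxa2+ CM.

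Endoderm also carried genes of the node and of the epiblast, which belong to neither of the 2 names. Of 12 node and notochord markers, 5 were called higher, 2 lower, 2 not called and 3 not tested. Foxj1, the master factor of motile cilia, stood at 67.2 and 44.7 CPM in Endoderm and at 0.584, 0.578 and 0.394 CPM in Foxa2+ CM (6.74 ± 0.47, edgeR adjusted p = 1.21e-05). Chrd, which encodes the BMP antagonist Chordin, stood at 250 and 197 CPM against 2.56 to 3.44 CPM, a 74.4-fold difference (6.22 ± 0.21, edgeR adjusted p = 4.8e-07). Noto, the notochord homeobox gene, had 123 counts in Endoderm, at 5.40 and 5.43 CPM, and 1 count in Foxa2+ CM, a ratio of 264 with a counting interval of 46.5 to 10510.

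T, the streak and notochord factor Brachyury, was high in both, at 178 and 131 CPM against 117, 106 and 105 CPM (0.50 ± 0.31, edgeR adjusted p = 0.246). Shh, the notochord and floor plate ligand, had no counts in Foxa2+ CM and at most 0.919 CPM in Endoderm, so it was not tested. Sox9 and the BMP antagonist gene Nog were lower in Endoderm (-2.77 ± 0.27 and -2.04 ± 0.40). Cfap126, a cilium gene, was called higher (1.63 ± 0.43) but not without Endoderm replicate 1 (adjusted p = 0.192) or Foxa2+ CM replicate 2 (0.0579).

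Pluripotency and epiblast markers numbered 20, all tested: 12 were called higher, 2 lower and 6 not called, with a median log2 fold change of 1.80. Nanog stood at 162 and 156 CPM against 4.97, 6.13 and 6.48 CPM, a 27.0-fold difference (4.76 ± 0.19, edgeR adjusted p = 8.35e-07). Sox2 stood at 90.8 and 102 CPM against 5.77 to 7.04 CPM (3.88 ± 0.23), and Utf1, a chromatin protein of pluripotent cells, at 57.1 and 52.1 CPM against 5.70 to 6.71 CPM (3.13 ± 0.21). The 2 Endoderm samples lay close together for these 3 genes.

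Pou5f1, which encodes Oct4, differed less, at 117 and 106 CPM against 34.7, 32.8 and 25.4 CPM (1.86 ± 0.30, edgeR adjusted p = 0.00139), and Fgf5, the marker of the postimplantation epiblast, was higher by 2.49 ± 0.33. Markers of naive mESCs were lower in Endoderm or were not called, and those not called lay on both sides. Zfp42, which encodes Rex1, was at 2.05 and 2.26 CPM in Endoderm and at 5.55 to 5.92 CPM in Foxa2+ CM (-1.42 ± 0.24, edgeR adjusted p = 0.00176). Dppa4, a further member of the list, was also lower (-3.02 ± 0.60). Esrrb was at 0.745 and 2.67 CPM against 4.24 to 6.03 CPM and Klf4 at 8.38 and 14.1 CPM against 11.03 to 22.1 CPM, neither called. Tfcp2l1 lay higher in Endoderm without overlap but was not called (1.24 ± 0.54, edgeR adjusted p = 0.106). Klf2 lay lower and was not called either (-1.27 ± 0.86, edgeR adjusted p = 0.283). Summed over the 20 genes, values ran from 2169.7 to 2189 CPM in Endoderm and from 686 to 823 CPM in Foxa2+ CM. The part of cells that keep an epiblast state in the differences between the groups was not tested.

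Among 14 neural and ectodermal genes 7 were called higher, 1 lower, 3 not called and 3 not tested. Nes, which encodes the intermediate filament protein nestin, stood at 271 and 231 CPM against 86.0, 84.5 and 92.1 CPM (1.52 ± 0.10, edgeR adjusted p = 8.08e-06). The anterior genes Hesx1 and Six3 had 123 and 109 counts in Endoderm and 2 and 1 in Foxa2+ CM, with ratios of 132 (counting interval 35.8 to 1102) and 234 (41.1 to 9323). The definitive neural genes Sox1 and Pax6 stayed at or below 1.84 and 1.34 CPM in all 5 samples. Ncam1, at 22.8 to 33.0 CPM in Foxa2+ CM and 4.47 and 13.2 CPM in Endoderm, was the member called lower (-1.73 ± 0.41). Summed over the 14 genes, Endoderm stood at 736 to 756 CPM and Foxa2+ CM at 235 to 264 CPM, and the part of these genes in other differences was not tested.

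**Figure D2:**
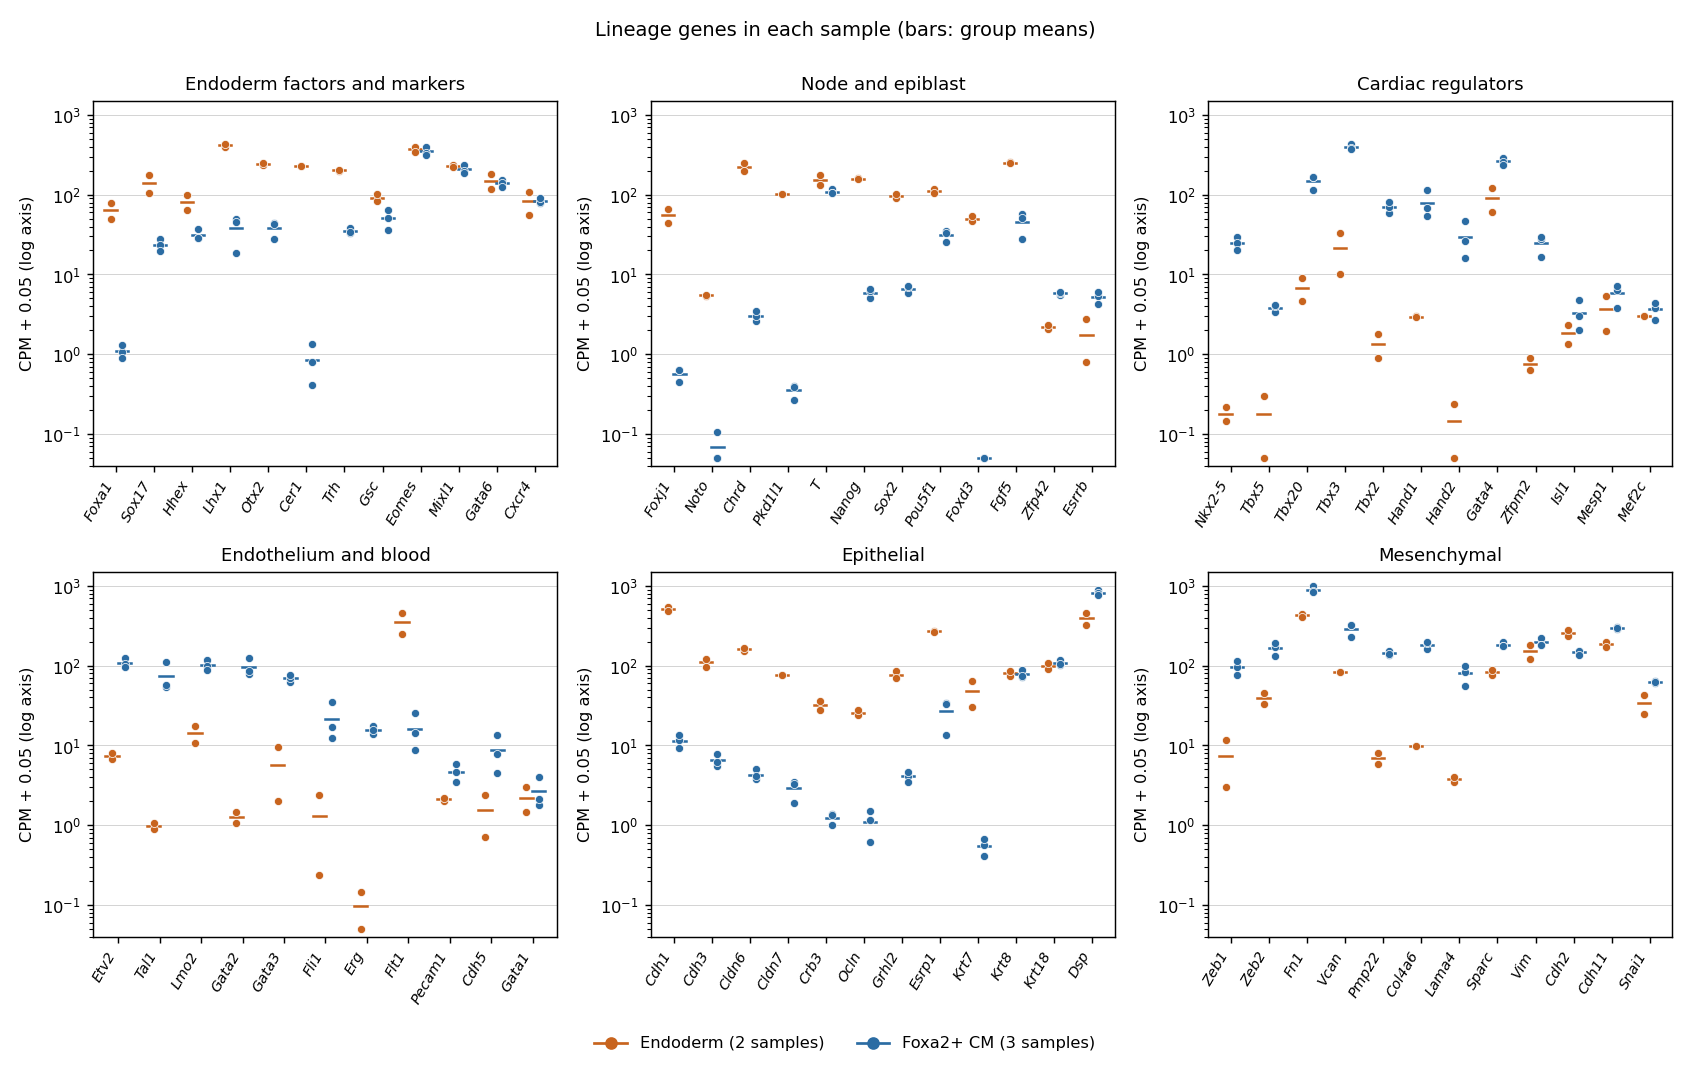
Expression of lineage genes in each of the 5 samples, as CPM plus 0.05 on a log axis, in 6 panels by gene group; orange points are the 2 Endoderm samples, blue points the 3 Foxa2+ CM samples and short bars the group means. Eomes, Mixl1, Gata6 and Cxcr4 overlap between the groups, whereas Cer1, Chrd, Nanog and Cdh1 lie higher in Endoderm and Nkx2-5, Tbx20, Gata2 and Erg higher in Foxa2+ CM in every sample.

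The cardiac regulators that were called were all lower in Endoderm. Of 18, 0 were called higher in Endoderm, 10 lower (against 8.49% of all tested genes), 7 not called and Gata5 not tested, with a median log2 fold change of -1.52. Nkx2-5, the early cardiac homeobox gene, whose RefSeq start region held none of the 5 motifs, had 1187 counts over the Foxa2+ CM samples (29.1, 25.0 and 20.1 CPM) and 3 over the Endoderm samples, a ratio of 184 with a counting interval of 62.9 to 895. Hand2, a basic helix-loop-helix factor of the right ventricle and outflow tract, stood at 15.8, 26.1 and 46.7 CPM in Foxa2+ CM against 2 counts in Endoderm, a ratio of 349 (96.4 to 2883). Its relative Hand1 stood at 54.3, 68.2 and 115 CPM against 2.98 and 2.84 CPM (-4.77 ± 0.48, edgeR adjusted p = 9.89e-05). For both Hand genes Foxa2+ CM replicate 3 was the highest sample.

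Several T-box factors were likewise lower in Endoderm. Tbx20 stood at 115, 167 and 168 CPM in Foxa2+ CM and at 4.65 and 8.94 CPM in Endoderm, 21.9-fold lower (-4.45 ± 0.57, edgeR adjusted p = 0.000381). Tbx3, a repressor of the chamber programme, stood at 435, 389 and 377 CPM against 10.1 and 32.9 CPM (-4.20 ± 0.39, edgeR adjusted p = 6.02e-05). Tbx5, needed for the first heart field, was low, at 3.29 to 4.11 CPM in Foxa2+ CM against 3 counts in Endoderm, a ratio of 28.9 (9.73 to 141). Over the Tbx family by symbol, 13 genes, 7 were tested, 5 called lower and 0 higher, Tbx2 by -5.73 ± 0.59. Tbx15, the fifth, lost its call without Endoderm replicate 2 (adjusted p = 0.099).

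Gata4, a zinc finger factor of heart and endoderm, was present in both, at 60.1 and 121 CPM in Endoderm and at 288, 258 and 240 CPM in Foxa2+ CM (-1.52 ± 0.35, edgeR adjusted p = 0.00802). Its call was lost without Endoderm replicate 1 (log2 fold change -1.14, adjusted p = 0.0619). The GATA cofactor gene Zfpm2 stood at 27.6, 29.8 and 16.4 CPM in Foxa2+ CM and at 0.838 and 0.585 CPM in Endoderm (-5.10 ± 0.48, edgeR adjusted p = 6.82e-05). The related Zfpm1 was called lower (-1.42 ± 0.33), but by -0.88 without Endoderm replicate 1. Isl1, Mef2c and Mesp1, all of them early or second heart field regulators, were below 7.1 CPM in each of the 5 samples, overlapped between the groups and were not called. Their log2 fold changes were -0.85 ± 0.50, -0.28 ± 0.31 and -0.66 ± 0.84.

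The contractile genes did not follow the regulators. Of 18 sarcomere and calcium-handling genes, 4 were called higher in Endoderm, 4 lower, 8 not called and 2 not tested. Cardiac troponin T, Tnnt2, and the atrial light chain gene Myl4 were higher in Foxa2+ CM, Tnnt2 at 7.08, 7.23 and 6.25 CPM against 0 and 0.418 CPM (-4.92 ± 0.76, edgeR adjusted p = 0.00107) and Myl4 at 14.6, 14.3 and 9.75 CPM against 0.186 and 0.919 CPM (-4.49 ± 0.48). In Endoderm the actins Actc1 (12.4 and 7.94 CPM against 0.803 to 1.296 CPM, 3.18 ± 0.37) and Acta2 and the myosin heavy chains Myh6 and Myh7 were higher. Myh7 stood at 2.51 and 8.27 CPM against 0.146 to 0.289 CPM (4.67 ± 0.54, edgeR adjusted p = 0.000216). None of these 6 genes reached 15 CPM in any of the 5 samples.

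Other mesodermal factors split as well. Of 20 genes of the streak and of paraxial and lateral mesoderm, 4 were called higher, 5 lower and 11 not called. Foxf1, of lateral and splanchnic mesoderm, stood at 26.1, 40.4 and 78.3 CPM in Foxa2+ CM and at 1.02 and 0.501 CPM in Endoderm (-5.99 ± 0.65, edgeR adjusted p = 0.000151), with replicate 3 again the highest. Its neighbour in the family, Foxf2, was lower by -4.01 ± 0.61. Higher in Endoderm were Fgf8 (1.79 ± 0.22), Tcf15 (2.74 ± 0.42), Foxc1 and Mesp2. Mesp2 lost its call without Foxa2+ CM replicate 1 (edgeR adjusted p = 0.055) or replicate 3 (0.0538). Without Endoderm replicate 1 its log2 fold change was 1.05. The streak genes Evx1, Tbx6 and Wnt3 were not called, Wnt3 standing at 109 and 113 CPM against 154 to 162 CPM.

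Several blood and endothelial regulators were also higher in Foxa2+ CM, beside the cardiac ones. Of 18 such genes 8 were called lower in Endoderm, 1 higher, 8 not called and 1 not tested, with a median log2 fold change of -2.84 (-2.72 with genes at 0 counts set to their bounds). Etv2, the ETS factor that starts the blood and vessel programme, stood at 126, 104 and 97.5 CPM in Foxa2+ CM and at 6.79 and 7.94 CPM in Endoderm (-3.88 ± 0.16, edgeR adjusted p = 8.58e-07). Gata2 stood at 79.9, 85.0 and 124 CPM against 1.02 and 1.42 CPM (-6.28 ± 0.31, edgeR adjusted p = 2.22e-06), and Tal1, the haematopoietic helix-loop-helix factor, at 54.3, 58.0 and 112 CPM against 0.838 and 1.00 CPM (-6.33 ± 0.75). Erg had 767 counts in Foxa2+ CM and 1 in Endoderm, a ratio of 357 with a counting interval of 64.0 to 14135.

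The junction and receptor genes of finished endothelium were low in the 5 samples. Pecam1 was at 3.43 to 5.75 CPM and Cdh5 at 4.53 to 13.6 CPM in Foxa2+ CM, against 1.95 to 2.17 and 0.652 to 2.34 CPM in Endoderm, and neither was called. The 2 samples titled Flk1+ high, whose spread enters the fit, held Pecam1 at 46.6 and 138 CPM and Cdh5 at 158 and 275 CPM. Runx1 was called (-1.65 ± 0.44) but not without Endoderm replicate 1 (adjusted p = 0.119), and Sox18 (-3.43 ± 0.91) lost its call without either Endoderm sample (adjusted p = 0.124 and 0.0662). The 18 genes summed to 538 to 751 CPM in Foxa2+ CM and to 312 to 569.7 CPM in Endoderm, most of the latter being Flt1. Their part in the other differences was not tested.

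The exception was Flt1, the VEGF receptor 1 gene, which was high in Endoderm. It stood at 251 and 459 CPM against 8.62, 14.1 and 25.8 CPM in Foxa2+ CM, a 21.7-fold difference (4.44 ± 0.63, edgeR adjusted p = 0.000629). Its relative Flt4 overlapped, at 12.2 and 11.5 CPM against 11.98 to 27.6 CPM. The VEGF coreceptor gene Nrp2 stood at 8.75 and 10.4 CPM in Endoderm and at 182, 214 and 260 CPM in Foxa2+ CM (-4.51 ± 0.21, edgeR adjusted p = 1.72e-06), and the ligand gene Vegfc was lower by -4.76 ± 0.51. Over the 16 VEGF and PDGF ligands and receptors, 7 were called lower, 1 higher and 8 not called, and 2 of the 7 are the sort markers Kdr and Pdgfra.

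Epithelial genes were the list with the most members higher in Endoderm. Of 26, 18 were called higher, 2 lower, 5 not called and 1 not tested, with a median log2 fold change of 2.84. Cdh1, which encodes E-cadherin, stood at 544 and 492 CPM against 11.5, 13.5 and 9.13 CPM, a 45.6-fold difference (5.51 ± 0.13, edgeR adjusted p = 8.86e-08). The tight junction genes Cldn7 (75.8 and 77.5 CPM against 1.86 to 3.43 CPM, 4.76 ± 0.29), Ocln (4.64 ± 0.46) and Marveld3 (6.24 ± 0.52) and the polarity gene Crb3 (4.73 ± 0.28) were all higher. So were the epithelial regulators Grhl2, a transcription factor (85.0 and 69.7 CPM against 3.38 to 4.62 CPM, 4.26 ± 0.51), and Esrp1, a splicing factor (275 and 266 CPM against 34.3, 33.2 and 13.4 CPM, 3.33 ± 0.41).

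Keratins and desmosome genes within that list did not move together. Krt7 stood at 30.4 and 65.2 CPM against 0.365 to 0.620 CPM (6.53 ± 0.63, edgeR adjusted p = 7.33e-05), whereas Krt8 and Krt18, the first keratins of simple epithelia, overlapped between the groups at 72.5 to 117 CPM. Krt19 was lower in Endoderm, at 8.75 and 18.2 CPM against 35.9 to 52.8 CPM (-1.80 ± 0.34, edgeR adjusted p = 0.00294). Dsp, which encodes the desmosome protein desmoplakin, was at 329 and 460 CPM against 881, 827 and 768 CPM (-1.06 ± 0.22), and without Endoderm replicate 1 its log2 fold change was -0.88.

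The mesenchymal list went the other way, with 0 called higher, 12 lower, 10 not called and 4 not tested of 26, and a median log2 fold change of -1.38. Zeb1, a repressor of Cdh1, stood at 77.1, 97.3 and 115 CPM in Foxa2+ CM and at 2.98 and 11.5 CPM in Endoderm (-3.71 ± 0.51, edgeR adjusted p = 0.00056), and Zeb2 was lower by -2.08 ± 0.22. Pmp22, a membrane protein gene of mesenchyme and Schwann cells, stood at 154, 138 and 142 CPM against 5.86 and 7.94 CPM (-4.38 ± 0.18, edgeR adjusted p = 8.58e-07). The matrix genes Fn1 (-1.07 ± 0.14), Sparc (-1.16 ± 0.12) and Vcan (-1.81 ± 0.28) differed less.

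Several defining members were not called, either by the test or because they fell short of 2-fold. Snai1, the repressor that opens the epithelial to mesenchymal transition at the streak, was at 43.4 and 24.9 CPM against 60.7 to 65.2 CPM (-0.88 ± 0.30), Vim at 122 and 182 CPM against 180 to 224 CPM, and Cdh2, which encodes N-cadherin, was on the Endoderm side at 237 and 277 CPM against 136 to 154 CPM (0.80 ± 0.17). The Endoderm libraries thus held reads of both Cdh1 and Cdh2. Col1a1 was called (-4.68 ± 1.01), but Foxa2+ CM replicate 3 stood at 99.3 CPM against 22.7 and 30.5 CPM, and the call was lost without either Endoderm sample (adjusted p = 0.0509 and 0.0587). Tnc lost its call in each of the 5 fits that leave out 1 sample.

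**Figure D3:**
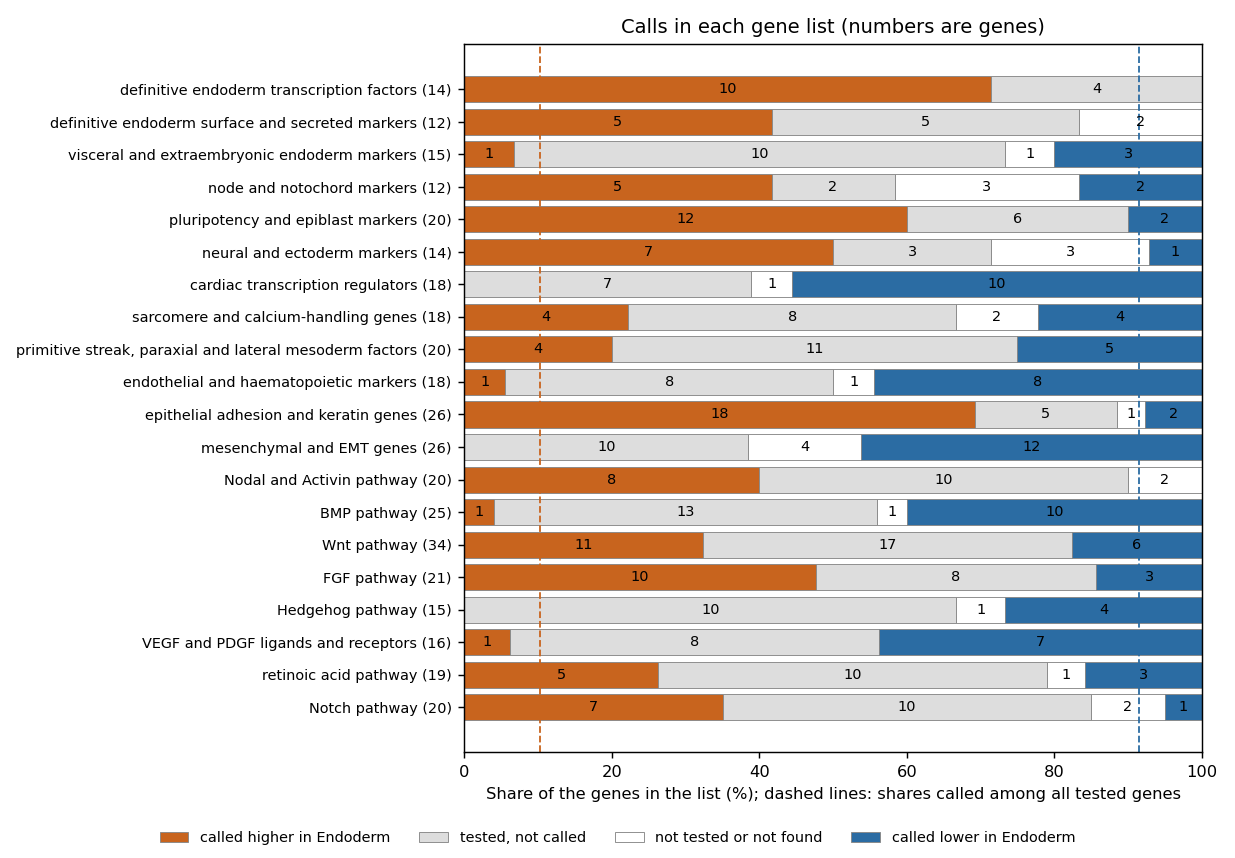
Share of each gene list called higher in Endoderm (orange), tested and not called (grey), not tested or not found (white) and called lower (blue), with the number of genes printed in each segment and the list size in brackets; dashed lines mark the 10.2% and 8.49% of all tested genes called higher and lower. Epithelial genes (18 of 26) and endoderm factors (10 of 14) lie on the higher side, and cardiac regulators (10 of 18) and mesenchymal genes (12 of 26) on the lower side.

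The pathways by which the streak allots endoderm and mesoderm were read by the roles of their members. In the Nodal and Activin list of 20, 8 genes were called higher, 0 lower and 10 not called, 1 was not tested and Gdf1 was not found. The feedback antagonist gene Lefty1 stood at 154 and 181 CPM against 2.41, 3.24 and 1.01 CPM, a 75.6-fold difference (6.24 ± 0.36, edgeR adjusted p = 5.21e-06), and Lefty2 at 119 and 214 CPM against 11.98 to 15.04 CPM (3.67 ± 0.42). Fst, which encodes the Activin-binding protein follistatin, was higher by 2.22 ± 0.26, and the coreceptor genes Tdgf1 and Cfc1 by 1.85 ± 0.40 and 1.44 ± 0.23.

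Nodal itself stood at 101 and 128 CPM against 36.3 to 39.5 CPM, without overlap, and did not pass (1.58 ± 0.67, edgeR adjusted p = 0.0971). The fit takes its spread from all 4 groups. In the 2 samples titled Flk1+ high, outside this comparison, Nodal stood at 1.07 and 23.7 CPM. The mediators Foxh1, Smad2 and Acvr1b had log2 fold changes between -0.25 and -0.20, that of the mediator Smad3 was 0.78 ± 0.22, and none was called. Inhbb, a subunit of Activin B, was higher by 4.06 ± 0.72, with the Endoderm samples at 5.68 and 21.4 CPM.

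BMP genes leaned to Foxa2+ CM. Of 25, 10 were called lower, 1 higher, 13 not called and 1 not tested. Bmp4 stood at 139, 129 and 148 CPM in Foxa2+ CM and at 5.68 and 3.51 CPM in Endoderm, 30.4-fold lower (-4.93 ± 0.18, edgeR adjusted p = 5.63e-07), and the cardiac cultures also received BMP4 as protein. Bmp5 was lower by -4.32 ± 0.76, with 46.7% of its exonic bases overlapped by another gene. Among genes that respond to BMP, Msx2 stood at 92.9, 82.3 and 88.6 CPM against 3.63 and 8.69 CPM (-3.82 ± 0.41, edgeR adjusted p = 0.00013), and the inhibitory mediator gene Smad6 at 142 to 149 CPM against 22.6 and 46.5 CPM (-2.08 ± 0.34). Id1, Id2 and Id3, the usual early targets, were not called (-0.53 ± 0.27, -0.43 ± 0.39 and -0.39 ± 0.13). Bmp2, Bmp7 and the receptor gene Bmpr1a were not called either, and the 1 member higher in Endoderm was Chrd.

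Wnt ligands, receptors and antagonists changed in both directions. Of 34, 11 were called higher, 6 lower and 17 not called. Wnt2, a ligand of early heart and lung mesoderm, stood at 75.4, 74.3 and 75.1 CPM in Foxa2+ CM and at 0.558 and 0.585 CPM in Endoderm, 129-fold lower (-7.01 ± 0.49, edgeR adjusted p = 1.17e-05). Wnt5a, the noncanonical ligand, was lower by -4.69 ± 0.28. Wnt8a stood at 93.3 and 75.6 CPM in Endoderm against 1.97 to 2.60 CPM (5.21 ± 0.33, edgeR adjusted p = 7.55e-06), and Wnt3a at 13.8 and 3.01 CPM against 0.219 to 0.462 CPM (4.73 ± 0.63).

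The secreted Wnt antagonists Sfrp1 (205 and 339 CPM against 11.04 to 15.03 CPM, 4.42 ± 0.23) and Frzb (138 and 158 CPM against 4.56 to 4.97 CPM, 4.95 ± 0.75) were higher in Endoderm. So were the receptor genes Fzd5 (3.73 ± 0.31) and Fzd8 (4.24 ± 0.37), while Fzd4 was lower (-2.53 ± 0.43) and Fzd7 was not called, at 271 and 261 CPM against 317 to 360 CPM. Sfrp5, at 19.6 and 83.1 CPM in Endoderm, lost its call without Endoderm replicate 2 (log2 fold change 1.25, adjusted p = 0.0898). The common targets Axin2, Lef1 and Nkd1 and the factor gene Tcf7 were not called, with Tcf7 at 160 and 151 CPM against 152 to 159 CPM. Sp5, another target, was called higher, at 83.02 and 94.3 CPM against 19.6 to 22.4 CPM (2.05 ± 0.49), though not without Endoderm replicate 2 (adjusted p = 0.0511).

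More FGF genes were called on the Endoderm side, with 10 of 21 called higher, 3 lower and 8 not called. Fgf17 stood at 49.2 and 57.4 CPM against 1.07 to 1.17 CPM, a 47.7-fold difference (5.58 ± 0.28, edgeR adjusted p = 2.32e-06), and Fgf8 at 123 and 146 CPM against 32.5 to 45.5 CPM. Fgf3 and Fgf10, the ligands of pharyngeal and heart field mesoderm, were lower in Endoderm, Fgf3 at 4.65 and 4.01 CPM against 55.0 to 77.6 CPM (-3.88 ± 0.18) and Fgf10 at 62.2 and 140 CPM against 283 to 317 CPM (-1.55 ± 0.31). The FGF-responsive genes Spry2, Etv4 and Etv1 were higher by 1.47 ± 0.18, 1.21 ± 0.10 and 1.33 ± 0.22. Dusp4 (1.03 ± 0.14) and Etv5 (1.08 ± 0.21) were called but fell short of 2-fold without 1 sample, Dusp4 at 0.95 without Foxa2+ CM replicate 1 and 0.93 without Endoderm replicate 2, and Etv5 at 0.99 without Endoderm replicate 1. Dusp6 (1.00 ± 0.41, edgeR adjusted p = 0.085), Spry1 (0.78 ± 0.13), Spry4 (0.95 ± 0.20), Spred1 (0.00 ± 0.09) and the receptor gene Fgfr1 (0.24 ± 0.11) were not called.

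In the Notch list of 20, 7 genes were called higher, 1 lower, 10 not called and 2 not tested. Jag1 stood at 184 and 269 CPM against 7.59, 9.65 and 12.2 CPM, a 22.9-fold difference (4.52 ± 0.27, edgeR adjusted p = 6.15e-06), and Dll3 at 38.3 and 38.0 CPM against 4.73 to 6.13 CPM (2.80 ± 0.63). The target gene Hes1 overlapped, at 101 and 107 CPM against 83.9 to 105 CPM. Without Endoderm replicate 2 the number called higher was 4 in place of 7, with Jag2, Lfng and Mfng not called (adjusted p = 0.136, 0.137 and 0.0608).

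The retinoic acid list of 19 had 5 called higher, 3 lower, 10 not called and 1 not tested. Stra6, the retinol uptake receptor gene, stood at 17.1 and 49.6 CPM against 0.113 to 0.405 CPM (6.92 ± 0.69, edgeR adjusted p = 8.91e-05), and Dhrs3, which turns retinal back to retinol, was higher by 3.16 ± 0.46. Cyp26b1, which breaks down retinoic acid, was lower by -4.68 ± 0.46, and Cyp26a1 was at 149 and 186 CPM against 106 to 137 CPM, not called. Rxrg lost its call in each of the 5 fits that leave out 1 sample, and without Endoderm replicate 2 the number called higher was 3. In the Hedgehog list of 15, 0 were called higher, 4 lower (Hhip, Boc, Gas1 and Dhh), 10 not called and Shh not tested. Dhh lost its call without Endoderm replicate 1 (adjusted p = 0.078).

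**Figure D4:**
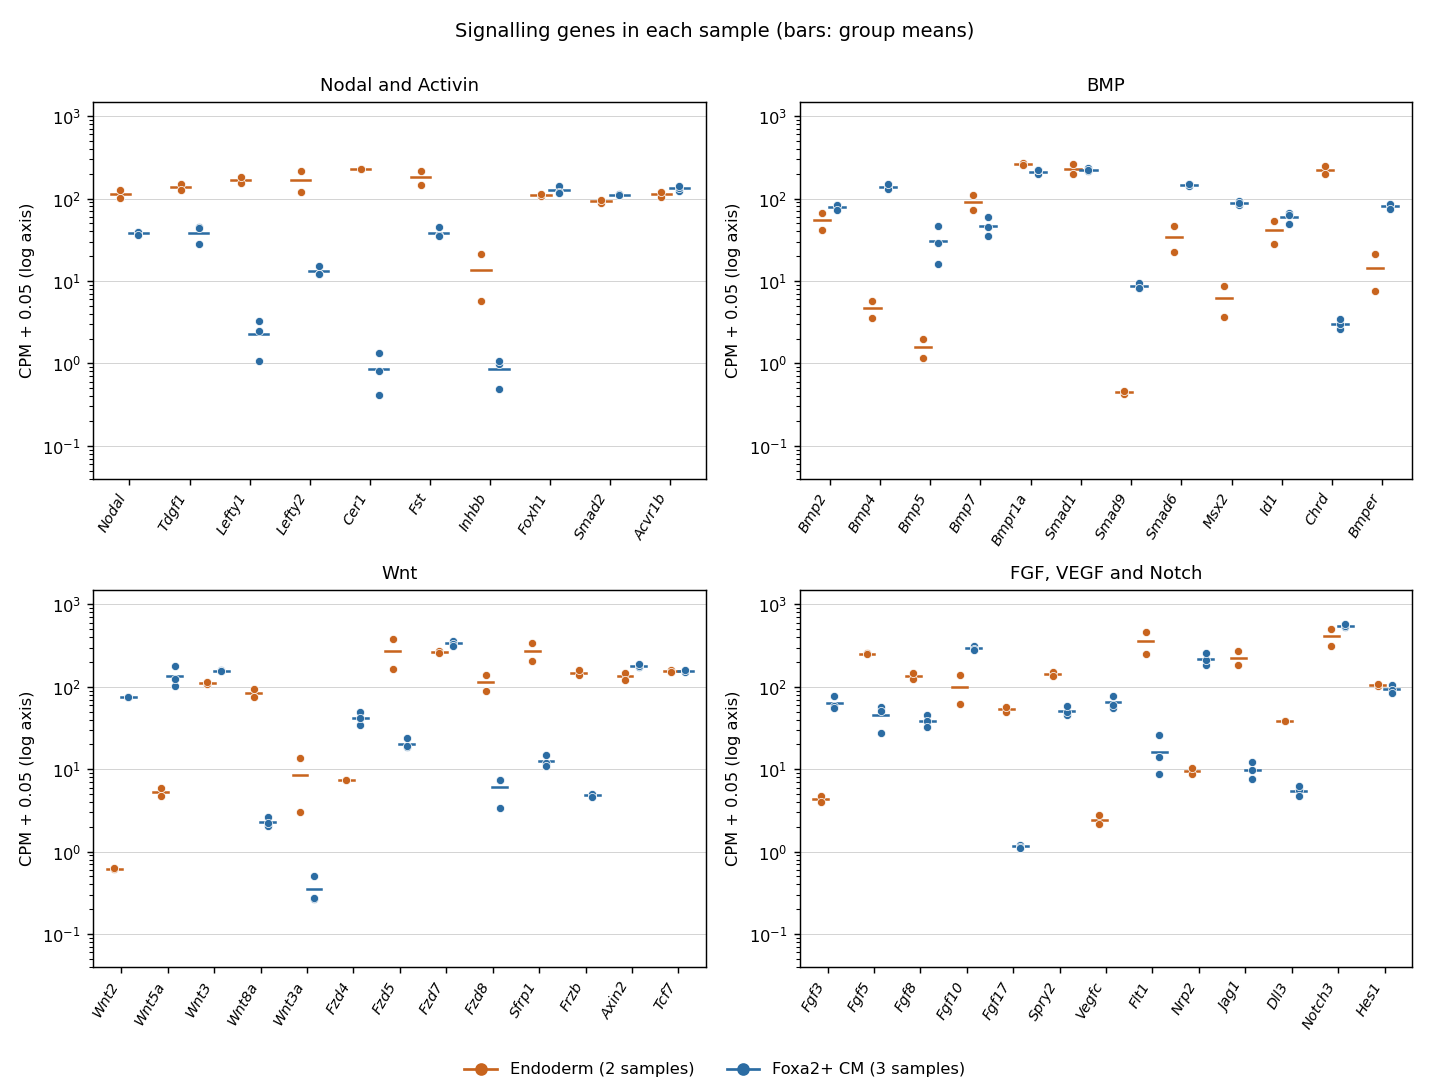
Expression of signalling genes in each of the 5 samples, as CPM plus 0.05 on a log axis, in 4 panels by pathway; orange points are the 2 Endoderm samples, blue points the 3 Foxa2+ CM samples and short bars the group means. Lefty1, Chrd, Wnt8a, Sfrp1, Fgf17 and Jag1 lie higher in Endoderm and Bmp4, Wnt2, Wnt5a, Fgf3 and Nrp2 higher in Foxa2+ CM in every sample, whereas Smad1, Tcf7 and Hes1 overlap.

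Some gene families had members called in both directions and others in 1 direction only. Their counts stand beside 10.2% of all tested genes called higher and 8.49% called lower. Of 44 Fox genes, 32 were tested, 12 called higher in Endoderm and 4 lower. Besides Foxa1 and Foxj1, Foxo1 stood at 115 and 104 CPM against 21.02 to 29.5 CPM (2.16 ± 0.19, edgeR adjusted p = 3.84e-05). The 4 lower were Foxf1, Foxf2, Foxc2 and Foxd1, of which Foxc2 lost its call without Endoderm replicate 2 (adjusted p = 0.0543) and Foxd1 without either Endoderm sample (0.0687 and 0.074). Of 6 Gata genes, 5 were tested, 3 called lower and 0 higher. Gata3 stood at 63.4, 70.5 and 76.4 CPM in Foxa2+ CM and at 1.95 and 9.44 CPM in Endoderm (-3.60 ± 0.45, edgeR adjusted p = 0.000338).

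Of 5 Zic genes 3 were tested and all 3 called higher, and of 6 Irx homeobox genes 5 were tested, 4 called higher and 0 lower, Irx3 at 37.0 and 77.6 CPM against 4.31 to 5.30 CPM (3.59 ± 0.39). Of the sine oculis homologues, Six3 was higher and Six2 lower, at 24.7 and 56.1 CPM against 127 to 174 CPM (-1.87 ± 0.37). Hox genes were low. Of 38, 20 were tested and 3 called, all lower in Endoderm (15% of those tested, beside 8.49% of all tested genes). Each of the 3 lost its call without at least 1 of the samples, so no direction of the family is read from them. Among them Hoxd1 lost it without either Endoderm sample (adjusted p = 0.119 and 0.0912).

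Cadherin, laminin and collagen genes were called in both directions, and claudin genes only as higher. Of 23 cadherin genes, 17 were tested, 5 called higher and 4 lower. Cdh3, which encodes P-cadherin, stood at 97.3 and 123 CPM against 5.48 to 7.83 CPM (4.08 ± 0.22, edgeR adjusted p = 3.8e-06), and Cdh8 and Cdh6 were lower by -5.60 ± 0.39 and -4.89 ± 0.43. Of 23 claudin genes, 12 were tested, 7 called higher and 0 lower. Of 11 laminin genes, all tested, 5 were called lower and 2 higher. Among them Lama4 (56.2, 83.5 and 100 CPM against 3.44 and 4.01 CPM, -4.42 ± 0.44), Lama1, Lama3, Lamb2 and Lamc3 were lower and Lamb3 higher. Lamb3 did not pass without Endoderm replicate 2 (adjusted p = 0.144) or Foxa2+ CM replicate 2 or 3 (0.0598 and 0.0539). The collagen genes, 35 tested of 44, had 10 lower and 5 higher. The basement membrane genes Col4a5 and Col4a6 stood at 180 to 229 and 162 to 200 CPM in Foxa2+ CM and at 15.3 to 15.5 and 9.77 to 9.86 CPM in Endoderm, whereas Col2a1 was higher in Endoderm, at 71.4 and 207 CPM against 13.9 to 22.4 CPM (2.99 ± 0.44).

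Guidance genes had named members on both sides. Among 20 semaphorin genes, all tested, 6 were higher and 4 lower. Sema6d stood at 141 and 254 CPM against 15.2 to 18.4 CPM (3.52 ± 0.41, edgeR adjusted p = 0.000226), and Sema3a, a ligand that repels axons and acts on the innervation of the heart, at 1.396 and 8.27 CPM against 68.3 to 84.7 CPM (-3.91 ± 0.51, edgeR adjusted p = 0.000408). The Eph receptor genes Epha1 (280 and 200 CPM against 15.1 to 19.8 CPM, 3.76 ± 0.37) and Epha7 (3.95 ± 0.25) were higher and the ligand gene Efnb1 lower (-1.24 ± 0.30, but -0.74 without Endoderm replicate 1). Potassium channel genes, 62 tested of 92, had 22 higher and 10 lower. Kcnj3 stood at 65.2 and 70.5 CPM against 4.001 to 8.62 CPM (3.35 ± 0.36) and Kcne1 at 47.5 to 58.0 CPM in Foxa2+ CM against 4.37 and 8.94 CPM (-2.93 ± 0.61), a call that Kcne1 lost without Endoderm replicate 1 (adjusted p = 0.0546).

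**Figure D5:**
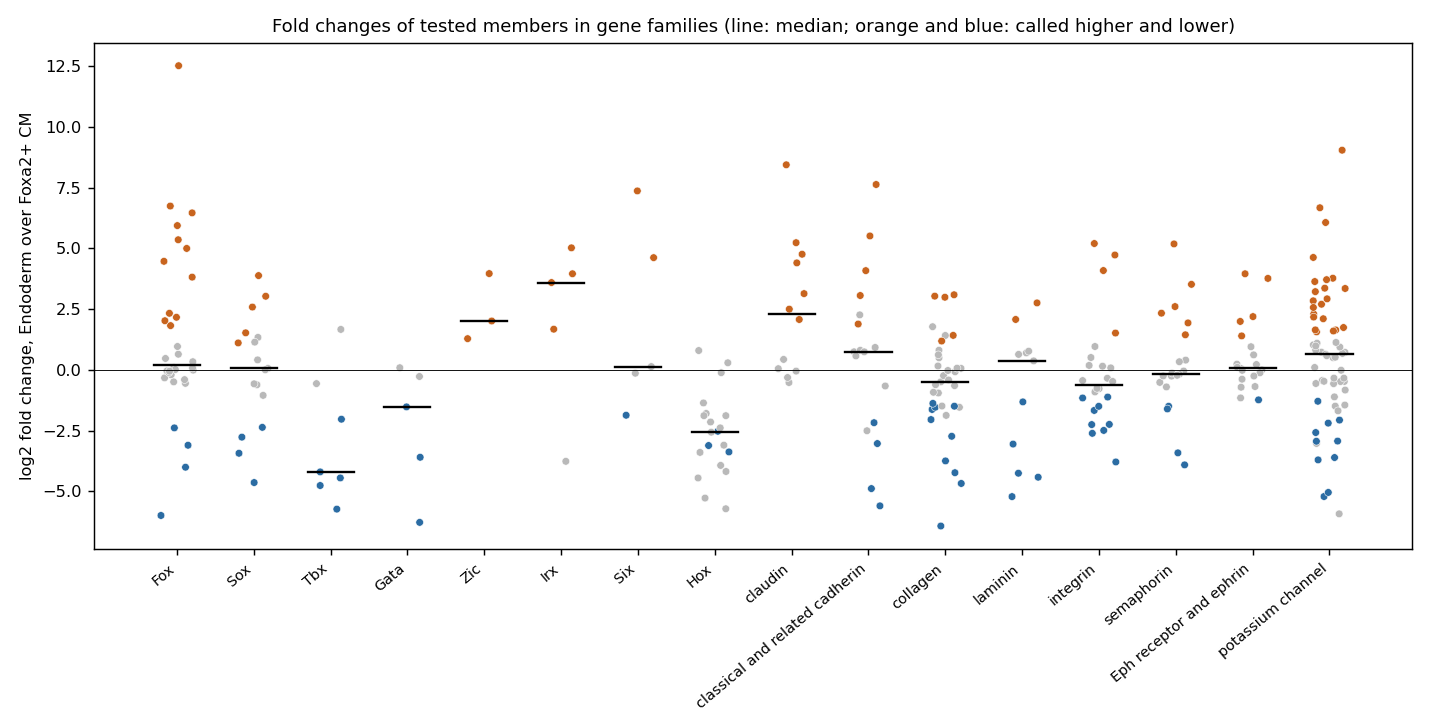
Log2 fold changes (Endoderm over Foxa2+ CM, y axis) of the tested members of 16 gene families (x axis); each point is a gene, orange and blue points are called higher and lower, grey points are not called and the line is the family's median. Tbx and Hox medians lie below 0 and Irx, claudin and Zic medians above it, and most other families spread to both sides; the values of genes with 0 counts in 1 group, such as Foxd3 at 12.52, depend on the fit and are no measured fold.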

How the data were processed

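Whole-number read counts per gene were deposited by the authors for each of the 10 samples. Per the methods, RNA of sorted cells was sequenced from single ends and aligned to mouse build mm10, and the submitters' processing notes name STAR 2.5.0a, Picard, with which duplicates were removed, and HTSeq 0.6.0. Removing single-end duplicates limits a gene to 2 counts per base of sequence, and 27 of the 390 named or listed genes passed 1 count per base in a sample (highest Trh, Etv2, Cer1, Foxh1 and Mixl1), so that their differences may be compressed. Whether counting used strand is not given in the sources used here, and genes that overlap another are uncertain (among those named, 31.1% of exonic bases for Kcnj3, 27.8% for Cfc1, 25.2% for Dhh, 19.6% for Hand2 and 16.8% for Sox17). Counts outside genes, 17.1 to 22.6% of uniquely aligned reads in the 5 samples, were left out.

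The counts were tested with edgeR 4.0.16 in R 4.3.3 (filterByExpr, TMM, glmQLFit and glmQLFTest on the 4 group means of all 10 samples, with Benjamini-Hochberg adjustment), after the procedure was tested on simulated data. The SE of a log2 fold change is its size divided by the root of the F statistic. CPM is counts per 1000000 of the total on genes times the TMM factor. GENCODE M21, of the same build but newer, gave symbols for 37607 of the 38924 genes. Groups came from sample titles. Samples of 1 group differed by more than sampling noise (chi-square per degree of freedom 5.03 to 10.4), so none was taken as a repeat deposit.

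Named were the 15 largest changes in each direction (see the report for the criteria), members of 21 gene lists and 24 families by symbol, taking those with the largest fold among the called, the highest level among the not called, and defining members. Members and lists were chosen with earlier results of these data known, so their counts are a description. A group at 0 counts in every sample was set to 3 counts per library, which gives a bound, and a group with 1 to 3 counts in all got an exact 95% binomial interval of the ratio. Both cover counting error only. Alternatives were DESeq2 size factors in edgeR, other filters, fits of the 5 samples alone, a replicate block, glmTreat and leaving out each sample. DESeq2 1.42.0 was also run, but with Foxa2+ and Foxa2- CM merged into 1 group, so it does not test this comparison. Promoters were RefSeq windows, and 1692 of the 3032 called genes had exactly 1. Figures were drawn with matplotlib 3.10.9. The single-gene results of some list and family members are not reported here.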

Additional observations from a re-analysis of the deposited data

How the results depend on the processing

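Of 3032 called genes, DESeq2 size factors in edgeR called 3023 among its 3035, and no filter on low counts 2960 of 3370. A filter of at least 1 CPM in 2 samples called 2820 of 2866, and a fit of the 5 samples alone 2909 of 3140. DESeq2 itself called 2887 genes, 2615 of them shared, but with Foxa2+ and Foxa2- CM merged into 1 group. It is therefore no check of this comparison. Every shared gene had the same direction in these fits. A threshold of 1.5-fold gave 3903 genes. A test against 2-fold itself (glmTreat) left 1725 genes, 1017 higher and 708 lower. Leaving out 1 sample left between 2438 and 2808 genes, with 1365 to 1490 higher and 1003 to 1357 lower, the fewest without Endoderm replicate 1. Of 209 called genes among the 390 named or listed, 170 kept the call in all 5 such fits and 39 lost it in at least 1, and of 207 further called family members 58 lost it. With the replicate block 3085 genes were called (1683 higher and 1402 lower), 2850 of them shared, but the samples share only a number: differences between replicates 1 and 2 in the groups correlated at 0.049 across 16180 genes, which are not independent. With 2 samples in Endoderm, the spread in that group is poorly known and is borrowed from all 4 groups.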

Other observations

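Solute carrier genes, 266 tested of 360, had 41 called higher in Endoderm and 23 lower, 15.4% and 8.65% of those tested, beside 10.2% and 8.49% of all tested genes. Slc27a2, a fatty acid transport protein gene, stood at 101 and 116 CPM in Endoderm and at 0.949, 1.21 and 2.20 CPM in Foxa2+ CM. Slc5a5, the iodide transporter gene of the thyroid, stood at 80.8 and 50.3 CPM against 4.67, 2.60 and 1.92 CPM.

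The 2 Endoderm samples differed from each other in more genes than any pair of Foxa2+ CM samples. Of 12127 genes that averaged at least 50 counts, 436 (3.6%) differed at least 2-fold between them, 368 of these higher in replicate 2, against 44, 317 and 143 genes in the 3 pairs of Foxa2+ CM samples. Genes at least 2-fold higher in Endoderm replicate 2 than in replicate 1 stood in every list but the sort markers. The members counted averaged at least 50 counts over the 5 samples, which some reached only through Foxa2+ CM. They included 5 of 8 visceral endoderm markers (Hnf4a, Cubn, Apob, Soat2 and Sox7), with Soat2 at 5 and 19 and Sox7 at 4 and 16 counts in Endoderm. So did 4 of 13 cardiac regulators (Gata4, Myocd, Zfpm1 and Tbx3), 4 of 13 blood and endothelial genes, 4 of 12 streak and mesoderm factors and 4 of 16 retinoic acid genes. At least 2-fold higher in replicate 1 were Hand2, Mesp1, Foxf1, Erg and Thy1, with Hand2 at 2 and 0 and Erg at 1 and 0 counts.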
